A study of Mus musculus with 94 samples.

Results

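The 10 genes described here belong to the unfolded protein response and the integrated stress response, and they were examined in single mouse haematopoietic stem cells labelled Ski-KO or Ski-WT. They were chosen by name, and all 10 were rows of a table of 13244 genes and 94 cells. They comprise the sensors and transcription factors Eif2ak3, Atf6 and Xbp1, the Atf4 arm (Atf4, Ddit3, Trib3 and Asns) and the endoplasmic reticulum (ER) chaperone arm (Hspa5, Calr and Herpud1). The Ski protein represses transcription downstream of TGF-beta receptors. The C57BL/6 cells derived from fetal liver, had spent 6 months in transplanted mice, and were sorted from hindlimb bone marrow as Cd45.2+, lineage-negative, c-Kit+, Sca-1+, Cd150+ and Cd48- cells. There were 46 Ski-KO cells, 27 with the label prefix 051716 and 19 with 051816, and 48 Ski-WT cells, all with the prefix 061016. The meaning of the prefixes, the Ski allele and how it was deleted, and the number and age of the mice are not given in the labels. Cells are not assigned to animals, donors or cultures, so a genotype is a single sample here. Genotypes were described without tests or p-values, and genotype and prefix cannot be told apart.

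Secreted and membrane proteins are folded in the ER by chaperones. When unfolded proteins accumulate there, Atf6 is cleaved to an active transcription factor, the kinase Ern1 splices Xbp1 mRNA into a form that encodes an active factor, and the kinase Eif2ak3 (PERK) phosphorylates the translation initiation factor eIF2. Lack of amino acids, viral RNA and lack of haem act on eIF2 through related kinases, and all of these inputs raise translation of Atf4 mRNA while general translation falls. Haematopoietic stem cells are known for a low rate of protein synthesis. A value per gene shows neither the splicing of Xbp1 mRNA nor the translation of Atf4 mRNA nor the cleavage of Atf6.

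Genes of both arms are known to carry response elements in their promoters, and the stretches that hold them are shown because the comparisons across cells ask whether such genes vary together. The 3 motifs were searched for on both strands of RefSeq promoters of build GRCm38.p6, from 250 bases before to 50 bases after each start, with 9 of the 10 genes matched (Atf6 was not). These were the ER stress response element ERSE (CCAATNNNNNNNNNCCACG), its variant ERSE-II (ATTGG and CCACG separated by 1 base), and the core of the C/EBP-ATF response element bound by Atf4 (TGATGNAA). The capitals mark the match, and all lines read 5′ to 3′ on the strand of the gene, the Calr match being on the opposite strand.
Hspa5 ERSE, chr2:34771985-34772083, + strand: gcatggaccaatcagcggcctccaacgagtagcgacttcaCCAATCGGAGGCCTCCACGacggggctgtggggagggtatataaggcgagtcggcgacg
Calr ERSE, chr8:84847035-84847133, - strand: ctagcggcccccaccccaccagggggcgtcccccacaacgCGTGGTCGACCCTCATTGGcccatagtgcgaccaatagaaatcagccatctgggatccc
Herpud1 ERSE-II, chr8:94386337-94386427, + strand: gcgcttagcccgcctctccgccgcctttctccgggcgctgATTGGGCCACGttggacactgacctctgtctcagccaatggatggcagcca
Asns C/EBP-ATF core, chr6:7693210-7693272, - strand: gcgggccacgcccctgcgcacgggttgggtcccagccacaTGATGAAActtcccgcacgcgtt

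The ERSE was present in 39 of 32851 promoters (0.119%), the ERSE-II in 12 (0.0365%) and the C/EBP-ATF core in 1304 (3.97%). The core also matched in Herpud1, 112 to 105 bases before the start and apart from its ERSE-II, and in Trib3 after the start. Thus Hspa5 and Calr each held an ERSE, Herpud1 an element of each arm, and Asns and Trib3 the core. No match was found in the windows of Atf4, Ddit3, Xbp1 and Eif2ak3. Among other genes of the pathway, the ERSE matched in 6 of 18 genes for ER chaperones and folding enzymes with a promoter in the table (Canx, Creld2, Dnajc3, Ero1b, Hsp90b1 and Pdia6), and the core in 5 of 9 aminoacyl-tRNA synthetase genes (Aars, Gars, Iars, Tars and Yars). In the other lists the core matched in 5 of 12 Atf4-dependent regulators and 3 of 13 genes of amino acid synthesis and transport. It also matched in 2 of 18 ER chaperone and folding genes and in 1 of 12 genes for eIF2 and its kinases and phosphatase. The ERSE matched in 2 of 15 genes for ER-associated degradation and translocation and in none of the Atf4 targets. A match describes the letters of the window and is not evidence of binding.

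The median number of genes above 0 was 3248 in prefix 051716, 3679 in prefix 051816 and 3670.5 in the Ski-WT cells, and the read depth is unknown because TPM, a measure of transcript abundance scaled by length and library, keeps none. Ski itself reached 5 TPM in 3 cells labelled Ski-KO and in 6 labelled Ski-WT, with means of 8.85 and 10.8 TPM, which gave no check of the genotype labels. Of the sort markers, Kit reached 5 TPM in 79 of the 94 cells, Ptprc in 61, Ly6a (Sca-1) in 56 and Slamf1 (Cd150) in 11, while Cd48 reached it in 0. A count of 0 allows a share of up to 3.19%, taken as 3 cells of 94 (the exact interval reaches 3.85%). Slamf1 mRNA was thus missing from most cells that had been sorted for its protein. Among 10 genes of granulocyte and monocyte progenitors, Elane, Mpo, Ctsg, Csf1r and Ly6c2 were at 0 in every cell, whereas Prtn3 and Lyz2 reached 5 TPM in 57 and 56 cells. Sdc1 and Cd79a, which mark plasma and B cells, reached it in 1 cell each, and Cd79b in 20. Intervals below are exact 95% binomial intervals and cover counting error only.

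The 10 genes fell into a group with high means and a group found in few cells. Over the 94 cells, mean expression was 385 TPM for Hspa5, 261 TPM for Calr, 213 TPM for Herpud1 and 146 TPM for Atf4. It was 52.8 TPM for Xbp1, 36.7 TPM for Asns, 29.1 TPM for Ddit3, 6.40 TPM for Trib3, 1.38 TPM for Atf6 and 1.12 TPM for Eif2ak3. The prefix means of Hspa5 (255 to 471 TPM), Calr (243 to 291 TPM) and Herpud1 (178 to 329 TPM) overlapped, and those of Atf4 (113 to 203 TPM) overlapped with Herpud1. By mean TPM, Atf4 was above Xbp1 (32.04 to 105 TPM) in all 3 prefixes, though by little in prefix 051816 (113 against 105 TPM). In that prefix Xbp1 was the higher by mean log2(TPM + 1), at 3.73 against 2.21 for Atf4. The ranges of Xbp1, Asns (3.34 to 68.7 TPM) and Ddit3 (21.5 to 33.2 TPM) overlapped, as did those of Atf6 (0.18 to 1.86 TPM) and Eif2ak3 (0 to 2.20 TPM). In every prefix Hspa5, Calr and Herpud1 exceeded at least 93.1% of the 13244 genes by mean TPM. Each of the 94 cells held between 0 and 6 of the 10 genes at 5 TPM or more, with a median of 3 in each prefix, and 1 Ski-WT cell held none.

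**Figure D1:**
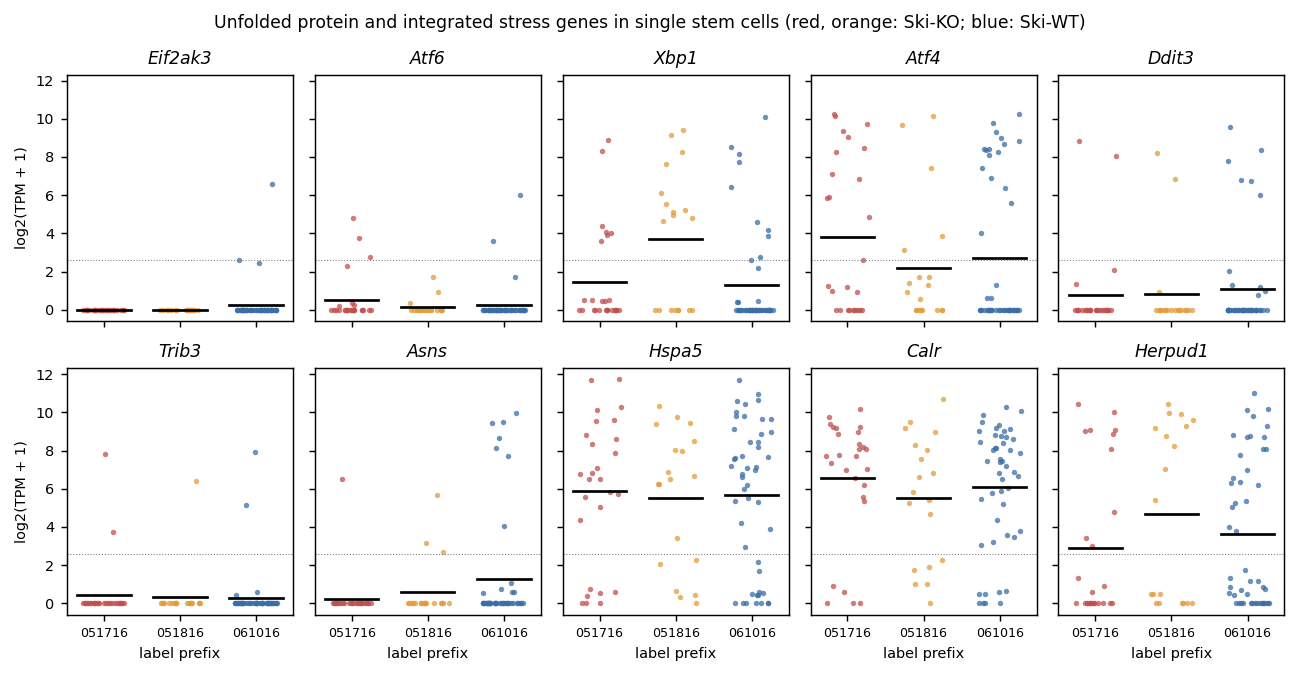
Values of the 10 genes cell by cell, by label prefix (horizontal axis) and in log2(TPM + 1) (vertical axis) (051716 and 051816 are Ski-KO, 061016 is Ski-WT). Each point is a cell, each black line the mean of a prefix, and the dotted line marks 5 TPM. Hspa5 and Calr were found in most cells, Atf4, Herpud1 and Xbp1 were split between high values and values near 0, and Eif2ak3 was at 0 in all Ski-KO cells.

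The sensors of the ER response were scarce. Eif2ak3, the ER kinase that phosphorylates eIF2, was at 0 in all 46 Ski-KO cells and reached 5 TPM in 2 of 48 Ski-WT cells, with a highest value of 96.01 TPM. A count of 0 in 46 cells allows a share of up to 6.52%, taken as 3 cells of 46 (the exact interval reaches 7.71%), which the Ski-WT share of 4.17% (interval 0.509% to 14.3%) does not exceed, so a difference was not detectable. Atf6, the membrane-bound factor that is released by cleavage, reached 5 TPM in 3 cells of prefix 051716 (highest 27.2 TPM), in 0 cells of prefix 051816 and in 2 Ski-WT cells (highest 63.4 TPM). The groups overlapped, since most cells of each were at 0.

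Xbp1, the transcription factor of the Ern1 branch, had the largest difference between genotypes of the 10 genes in mean log2(TPM + 1), and Asns had the largest by linear means (log2 ratio -4.00 against 0.51 for Xbp1) or with a pseudocount of 10 TPM (-0.58 against 0.54). It had a median of 0 TPM and a highest value of 473 TPM in prefix 051716, a median of 26.5 TPM and a highest value of 677 TPM in prefix 051816, and a median of 0 TPM and a highest value of 1075 TPM in the Ski-WT cells. The cells of all prefixes overlapped, from 0 upwards, and the cell with the highest value was Ski-WT. Xbp1 reached 5 TPM in 7 of 27 cells of prefix 051716 (25.9%, interval 11.1% to 46.3%), in 11 of 19 cells of prefix 051816 (57.9%, interval 33.5% to 79.7%) and in 10 of the 48 cells labelled Ski-WT (20.8%, interval 10.5% to 34.99%). On the log2(TPM + 1) scale, on which differences of means understate the change of genes with low values, the Ski-KO mean was 2.40 and the Ski-WT mean 1.30, a difference of 1.10. The difference from the Ski-WT cells was 0.17 in prefix 051716 and 2.43 in prefix 051816, so it came from 1 of the Ski-KO prefixes. The mean of the B cell gene Cd79b was also higher in prefix 051816 (250.1 TPM). It was 20.6 TPM in prefix 051716 and 65.5 TPM in the Ski-WT cells. Cd79b reached 5 TPM in 5 of 19, 4 of 27 and 11 of 48 cells in the same order. The other plasma and B cell genes went the other way, since Sdc1 (mean 3.37 TPM) and Cd79a (5.76 TPM) were above 0 in prefix 051716 alone. In prefix 051816 the listed plasma and B cell genes summed to a median of 0 TPM per cell, with a highest value of 2614 TPM. Of the 20 cells with Cd79b at 5 TPM or more, 9 held Xbp1 at that level, compared with 28 of all 94 cells, and the rho between the genes within prefixes (Spearman) was 0.187. Without the cells that held Cd79b at 5 TPM or more, 8 of 14 cells of prefix 051816 had Xbp1 at that level, and the mean was 3.93 on the log2 scale compared with 3.73 for all cells of the prefix. The part of other cell types in the Xbp1 difference was not tested.

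Atf4, the factor on which the eIF2 kinases converge, was the most abundant gene of its arm. Its median was 1.35 TPM and its highest value 1217 TPM in prefix 051716, 0.94 and 1116 TPM in prefix 051816, and 0 and 1203 TPM in the Ski-WT cells. The ranges of the prefixes were alike. Atf4 reached 5 TPM in 13 of 27 cells (48.1%, interval 28.7% to 68.1%), 5 of 19 cells (26.3%, interval 9.15% to 51.2%) and 16 of 48 cells (33.3%, interval 20.4% to 48.4%) in the same order, and the median of those cells was 306 TPM, 171 TPM and 335 TPM. At least 100 TPM was held by 25 of the 34 cells, and 47 of all 94 cells were at 0. The difference from the Ski-WT cells was 0.43 for all Ski-KO cells, 1.09 for prefix 051716 and -0.51 for prefix 051816, with opposite signs in the Ski-KO prefixes.

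Ddit3 (CHOP), a pro-apoptotic factor downstream of Atf4, reached 5 TPM in 2 cells of prefix 051716 (462 and 269 TPM), in 2 cells of prefix 051816 (292 and 115 TPM) and in 6 Ski-WT cells, of which the highest had 763 TPM. The difference between genotypes was -0.28, with -0.32 and -0.23 in the Ski-KO prefixes. Trib3, a pseudokinase that restrains the response, reached 5 TPM in 2, 1 and 2 cells, with highest values of 227, 83.7 and 242 TPM and a difference of 0.10. In neither genotype was either gene above 0 in 25% of cells, and the positive cells of the genotypes overlapped in level.

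Asns, which encodes asparagine synthetase, had fewer cells above 0 and lower values in the Ski-KO cells. It was above 0 in 4 of 46 Ski-KO and 12 of 48 Ski-WT cells. It reached 5 TPM in 8.70% of Ski-KO cells (4 of 46, interval 2.42% to 20.8%) and 14.6% of Ski-WT cells (7 of 48, interval 6.07% to 27.8%). The Ski-KO values were 90.2, 50.6, 8.01 and 5.45 TPM. The Ski-WT values were 992, 721, 686, 395, 275, 209 and 15.5 TPM, so 6 Ski-WT cells lay above the highest Ski-KO cell. The linear means were 3.35 TPM for Ski-KO and 68.7 TPM for Ski-WT, which is 20.5-fold higher for Ski-WT and rests on those 6 cells. The difference of log2 means was -0.88, with -1.03 in prefix 051716 and -0.66 in prefix 051816. Asns passed the 25% filter through the Ski-WT cells, where it was higher. The number of genes above 0 was related to Asns within prefixes (Spearman rho 0.330), and the 6 cells held between 3627 and 4839 genes. With that number as a covariate the difference was -0.54, and by the log2 ratio of linear means plus 1 it was -4.00.

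The ER chaperone arm had nearly equal genotype means. Hspa5 (BiP), the main ER Hsp70 chaperone, had a median of 90.6 TPM and a highest value of 3397 TPM in prefix 051716, 90.1 and 1279 TPM in prefix 051816, and 115.95 and 3365 TPM in the Ski-WT cells. The lowest value was 0 in each prefix, and the cells overlapped over the whole range. Hspa5 reached 5 TPM in 74.1%, 68.4% and 70.8% of cells, and the difference between genotypes was 0.05. Calr, the calcium-binding lectin chaperone calreticulin, had medians of 211, 56.2 and 156 TPM and reached 5 TPM in 81.5%, 68.4% and 83.3% of cells. Its highest values were 1149, 1666 and 1242 TPM, the lowest were 0, and the difference between genotypes was 0.02. Herpud1, a membrane protein of ER-associated degradation, had medians of 0, 41.3 and 1.41 TPM and highest values of 1371, 1382 and 2096 TPM. It reached 5 TPM in 10 of 27 cells (37.04%, interval 19.4% to 57.6%), 10 of 19 cells (52.6%, interval 28.9% to 75.6%) and 22 of 48 cells (45.8%, interval 31.4% to 60.8%), and the difference between genotypes was -0.00059.

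The pooled values covered opposite differences in the Ski-KO prefixes. Relative to the Ski-WT cells, Calr differed by 0.45 in prefix 051716 and by -0.60 in prefix 051816, and Herpud1 by -0.74 and 1.05. Between the Ski-KO prefixes, Xbp1 (2.26) and Herpud1 (1.79) were higher by at least 1 in prefix 051816, and Atf4 (-1.60) and Calr (-1.05) were lower by at least 1. These were 4 of the 10 genes. The background was taken over the 6240 genes found above 0 in 25% or more of the cells with 1 of the genotype labels, a filter that 6 of the 10 passed. Between the Ski-KO prefixes, 15.7% of these genes were higher and 8.86% lower by at least 1 in prefix 051816, 24.6% in all. Without the filter, 13% of all 13244 genes differed by that much in either direction. Between genotypes, 1 of the 10 genes (Xbp1, higher) differed by at least 1, compared with 2.08% of the 6240 genes that were higher and 11.8% that were lower by that much. Without the filter these shares were 0.982% and 5.69%. Against the Ski-WT cells, prefix 051716 had Atf4 higher and Asns lower by at least 1 (3.93% and 17% of the 6240 genes), and prefix 051816 had Xbp1 and Herpud1 higher (6.36%) and no member lower (13%). Both the members and all genes passed the limit more often between the Ski-KO prefixes than between genotypes, where 13.9% of genes did. The prefixes hold 27 and 19 cells and the genotypes 46 and 48, so these shares are not like for like. The part of cell number in them was not tested. The median difference between genotypes over the 6240 genes was -0.22, and it was -0.15 after quantile normalization. The sort marker Ly6a also separated the Ski-KO prefixes, at 5 TPM or more in 20 of 27 cells of prefix 051716 and 7 of 19 cells of prefix 051816, and its part in these differences was not tested.

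**Figure D2:**
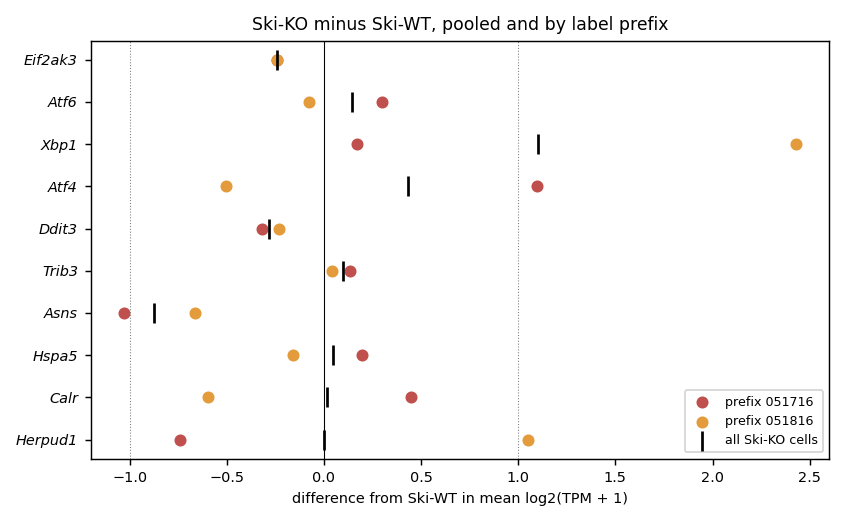
Mean log2(TPM + 1) of Ski-KO cells minus that of Ski-WT cells (horizontal axis) for the 10 genes (vertical axis). Red and orange points are the Ski-KO prefixes 051716 and 051816, black bars all Ski-KO cells, and dotted lines mark a difference of 1. The Ski-KO prefixes lie on opposite sides of 0 for Atf6, Atf4, Hspa5, Calr and Herpud1.

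Whether Atf4 targets followed Atf4 from cell to cell was described with Spearman's rho within each prefix, averaged with the number of cells as weight, so that differences between prefixes do not enter. All values are over the 94 cells, which share a genotype label within a prefix, and they are descriptions without a test. A prefix in which a gene was at 0 in all cells adds 0. Asns and Atf4 had a rho of 0.014, with 0.207 in prefix 051716, 0.021 in prefix 051816 and -0.097 in the Ski-WT cells. Of 3170 genes that reached 5 TPM in 25% or more of the 94 cells, 46.5% had a lower rho with Atf4. Asns itself reached 5 TPM in 11.7% of cells, so it was ranked against genes found in more cells. It was above 0 in 1 of 27 cells of prefix 051716, 3 of 19 of prefix 051816 and 12 of 48 Ski-WT cells. The value of 0.207 thus rests on 1 cell with Asns. In counts of cells at 5 TPM, 4 held both genes, 30 held Atf4 alone, 7 held Asns alone and 53 held neither. The Ski-WT cells with the 2 highest Asns values, 992 and 721 TPM, had Atf4 at 0. Atf4 was found in 36.4% of the cells with Asns and in 36.2% of all cells, so Asns cells held Atf4 about as often as the rest.

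Ddit3 came nearest among the Atf4 targets of the 10 genes. Its rho with Atf4 was 0.176, above that of 93.5% of the 3170 genes, with 0.403 in prefix 051716, 0.097 in prefix 051816 and 0.080 in the Ski-WT cells. Ddit3, at 5 TPM in 10.6% of cells, was likewise ranked against genes found in more cells. It was above 0 in 4 of 27, 3 of 19 and 11 of 48 cells in the same order, so the values by prefix rest on few cells. Of the 10 cells with Ddit3 at 5 TPM or more, 6 also held Atf4 (60%), compared with 34 of all 94 cells. The Ski-WT cell with the highest Ddit3 value, 763 TPM, held 451 TPM of Atf4. Trib3 had a rho of -0.0084 with Atf4, and 2 cells held both genes. Over 42 listed targets in the table, the median rho with Atf4 was 0.0070 and the range -0.150 to 0.266, and 0 of them reached 0.3. The highest value was that of Tars, threonyl-tRNA synthetase. Of the 14 targets found at 5 TPM in at least 25% of cells, the median was -0.0022, beside 0.024 over the 3170 genes, of which 0.252% reached 0.3 with Atf4.

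**Figure D3:**
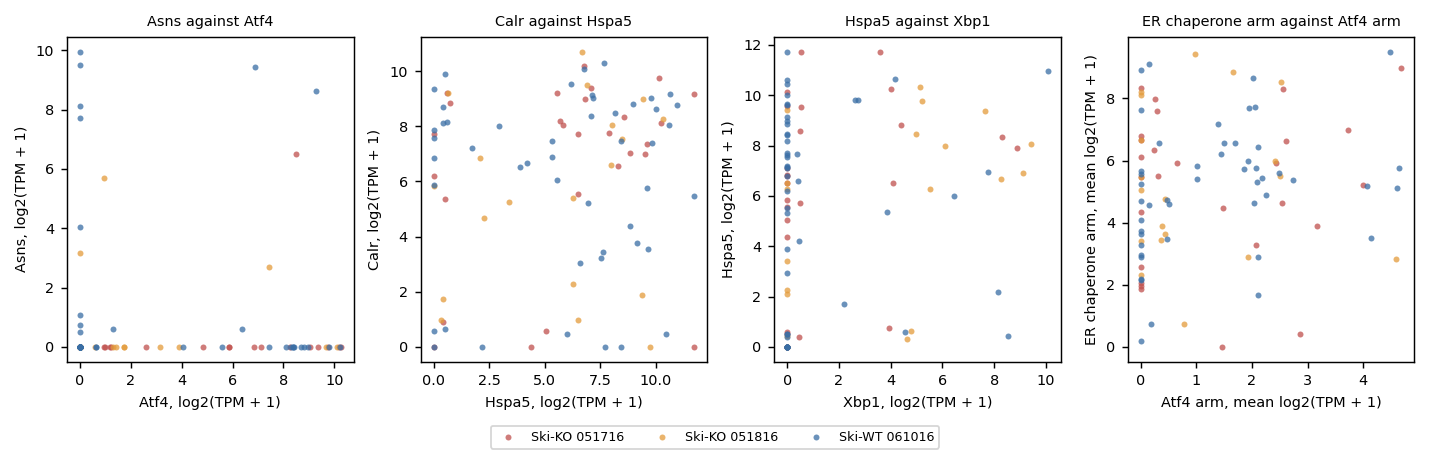
Values of pairs of genes or arms in the same cells, in log2(TPM + 1) for genes and mean log2(TPM + 1) over members for arms. Each point is a cell, red and orange for the Ski-KO prefixes 051716 and 051816 and blue for Ski-WT. Of the 6 cells with at least 100 TPM of Asns, 4 had Atf4 at 0, and cells with Xbp1 at 0 held between 0 and 3365 TPM of Hspa5.

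Within the ER chaperone arm the genes were also weakly related. Hspa5 and Calr had a rho of 0.147 and were found together at 5 TPM in 56 cells, Hspa5 alone in 11, Calr alone in 19 and neither in 8. Hspa5 and Herpud1 had 0.034, and Calr and Herpud1 0.015. Xbp1 and Hspa5 had the highest rho of the 45 pairs, 0.265, above that of Hspa5 with 99.4% of the 3170 genes. It was 0.463 in prefix 051716, 0.524 in prefix 051816 and 0.052 in the Ski-WT cells, so the relation was seen in the Ski-KO prefixes and the difference between genotypes was not tested. Of the 28 cells with Xbp1 at 5 TPM or more, 22 held Hspa5 at that level (78.6%), compared with 71.3% of all cells. The Ski-WT cell with the highest Xbp1 value, 1075 TPM, held 1996 TPM of Hspa5. Xbp1 and Atf4 had the lowest rho of the 45 pairs, -0.20, with -0.116 in prefix 051716, -0.545 in the 19 cells of prefix 051816 and -0.110 in the Ski-WT cells, and 7 cells held both. Such values rest on few cells and are weak.

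The arms were compared through the mean log2(TPM + 1) of their members. The ER chaperone score had a median of 5.51 in prefix 051716, 5.05 in prefix 051816 and 5.34 in the Ski-WT cells, and the Atf4 arm score had 0.31, 0.43 and 1.20. The means of the Atf4 arm score, at 1.31, 0.999 and 1.34, lay closer together than its medians. Those of the ER chaperone score, at 5.12, 5.25 and 5.15, lay closer together than the means of the Atf4 arm. The scores had a rho of 0.184 within prefixes, with 0.125, 0.047 and 0.271 in the same order. Both scores were related to the number of genes above 0 in a cell, the ER chaperone score with a rho of 0.388 and the Atf4 arm score with 0.270. With that number held constant the rho between the arms was 0.085. The 12 pairs between the arms had a median rho of 0.048 (range -0.19 to 0.14). The 6 pairs within the Atf4 arm had 0.0075 (range -0.067 to 0.252) and the 3 pairs within the ER chaperone arm 0.034 (range 0.015 to 0.147), so the ranges overlapped.

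**Figure D4:**
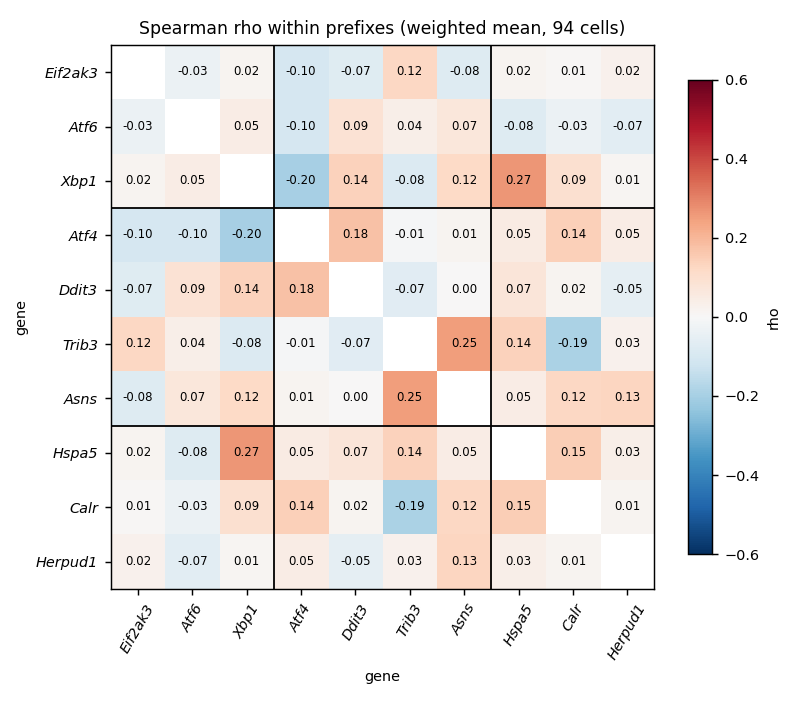
Spearman rho within prefixes, averaged over prefixes with the number of cells as weight, for all pairs of the 10 genes on both axes. Black lines separate the sensors, the Atf4 arm and the ER chaperone arm, and colour runs from -0.6 (blue) to 0.6 (red). Values lie between -0.20 (Xbp1 with Atf4) and 0.27 (Xbp1 with Hspa5).

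Longer lists gave more genes per arm. In these lists, with the members added, 231 pairs of ER genes had a median rho of 0.081, 55 pairs of ER chaperone and folding genes among them 0.116, 105 pairs of Atf4 and its targets 0.078, and 330 pairs between these groups 0.077, beside 0.026 over 5026035 pairs of all genes at 5 TPM in at least 25% of cells. With the number of genes above 0 held constant the medians were 0.026, 0.047, 0.0028 and 0.023 in the same order, beside 0.0019 over all pairs. The mean score of 20 ER chaperone and folding genes had a rho of 0.512 with the mean score of 39 Atf4 targets outside the 10 genes. The scores had a rho of 0.593 and 0.626 with the number of genes above 0, and with that number held constant the rho between them was 0.163.

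The genes whose pattern was most like that of Atf4 and of Hspa5 were named by rank of rho among the 3170 genes. For Atf4 they were Ppat (0.330), an enzyme gene of purine synthesis, the ribosomal protein gene Rpl7a (0.326), Wdr61 (0.324), Vmn2r-ps129 (0.321) and Arhgap1 (0.317), a GTPase-activating protein gene. For Hspa5 they included the polyadenylation factor gene Cpsf6 (0.310), Pdap1 (0.304), 1110001J03Rik (0.297) and Gna13 (0.295), a G protein alpha subunit gene. At or above 0.3 lay 0.252% of genes with Atf4 and 0.0946% with Hspa5, compared with 0.651% of all pairs of genes. For Calr, Herpud1 and Xbp1 the shares were 0.978%, 0.915% and 0.252%. None of the genes named as most like Atf4 or Hspa5 was on the pathway lists.

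Other genes of the pathway were taken from 7 lists of 117 symbols, of which 99 were in the table, Eif2ak3 among them. In the Ski-KO cells 4 were higher by at least 1 (4.04%) and 9 lower (9.09%), with a median difference of -0.15. Over all 13244 genes without a filter, 0.982% were higher and 5.69% lower by that much, and over the 6240 genes above the filter 2.08% and 11.8%. All 13 lay above the filter, which 67 of the 99 genes passed. A gene can pass that filter, or the 5 TPM filter for naming, through the genotype in which it is higher. In both Ski-KO prefixes taken alone, 5 of the 13 passed the limit in the same direction (Eif2b2, Nupr1, Slc1a5, Rtcb and Ubxn4), and the other 8 did so in 1 prefix. The difference of Ssr3 was -2.23 in prefix 051716 and 0.43 in prefix 051816.

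Upstream of Atf4, 14 genes for eIF2 kinases, eIF2, its exchange factor eIF2B and its phosphatase were in the table, 1 higher and 2 lower by at least 1. The lower genes were Eif2b2 (-1.61), a subunit of eIF2B, and Eif2s1 (-1.58), the eIF2 subunit that the stress kinases phosphorylate. Eif2b2 reached 5 TPM in 4 of 46 Ski-KO and 15 of 48 Ski-WT cells, and Eif2s1 in 18 and 33. For Eif2s1 the difference was -2.30 in prefix 051716 and -0.55 in prefix 051816, and the linear means were close, at 131 and 136 TPM. Ppp1r15a (GADD34), the stress-induced phosphatase subunit that restores eIF2, had a difference of 0.93, with 25 and 21 cells at 5 TPM. Eif2s2 had 0.15. The gene that was higher by at least 1 was Eif2b5 (1.17), the catalytic subunit gene of eIF2B, with 8 and 2 cells at 5 TPM and means of 73.7 and 3.27 TPM. It lies outside the naming rule and was picked after its value was seen.

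Among Atf4 targets, Nupr1, a stress-induced chromatin protein gene, had the lowest difference, -2.15. It reached 5 TPM in 1 of 27 cells of prefix 051716, 7 of 19 cells of prefix 051816 and 21 of 48 Ski-WT cells, with means of 7.24, 93.8 and 232 TPM. Of 11 Atf4-dependent regulators 1 was lower and 0 were higher by at least 1, and Eif4ebp1, the translation repressor gene, had -0.74. Of 15 genes of amino acid synthesis and transport 1 was higher and 0 were lower. That gene was Slc1a5, a glutamine transporter, with a difference of 1.17 and linear means of 39.4 (Ski-KO) and 5.89 TPM (Ski-WT). Slc1a5 reached 5 TPM in 16 of 46 Ski-KO and 8 of 48 Ski-WT cells. The serine synthesis gene Psat1 (-0.62) and the mitochondrial serine hydroxymethyltransferase gene Shmt2 (-0.57) had the lowest values of that list among genes that reached 5 TPM in 25% or more of cells with either genotype label, and the amino acid transporter gene Slc38a2 had 0.05, or -0.26 by linear means.

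Of 13 aminoacyl-tRNA synthetase and tRNA export genes, 1 was higher and 2 were lower by at least 1. Eprs, for glutamate and proline, had 1.03, with 31 Ski-KO against 24 Ski-WT cells at 5 TPM, and Gars, for glycine, had 0.40. The Eprs difference was 1.45 in prefix 051716 and 0.43 in prefix 051816. Wars, for tryptophan (-1.17), and Tars, for threonine (-1.08), were lower, with 7 against 14 and 11 against 18 cells at 5 TPM. Genes with the same textbook link to Atf4 thus differed in both directions.

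Of 20 ER chaperone and folding genes, 1 was higher and 1 lower by at least 1, and the median difference was -0.13. Uggt1, which tags misfolded glycoproteins for another round of folding, had 1.26, but its mean was 54.1 TPM in prefix 051716 and 9.54 TPM in prefix 051816, against 2.79 TPM in the Ski-WT cells. Fkbp2, a prolyl isomerase gene, had 0.77. Txndc5, a disulphide isomerase gene, had -1.06 and Dnajc3, which encodes an ER co-chaperone, -0.74. Uggt1 reached 5 TPM in 14 of 46 Ski-KO and 4 of 48 Ski-WT cells, and Txndc5 in 4 and 12. Of 19 genes for degradation and translocation 0 were higher and 2 were lower, Ubxn4 (-1.68), which helps to recruit the p97 ATPase to the ER, and Ssr3 (-1.13), a subunit of the translocon-associated complex. Ssr3 differed by 2.66 between the Ski-KO prefixes, and its linear means were 357 and 376 TPM. Sec61b, a subunit of the translocation channel, had 0.18. Among 7 sensors and processing factors 0 were higher and 1 was lower. That gene was Rtcb (-1.54), the ligase that joins the Xbp1 exons after Ern1 has cut the mRNA, with 24 Ski-KO and 29 Ski-WT cells at 5 TPM and means of 151 and 403 TPM. The site-1 protease gene Mbtps1, whose product cleaves Atf6, had 0.09, or -0.89 by linear means.

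**Figure D5:**
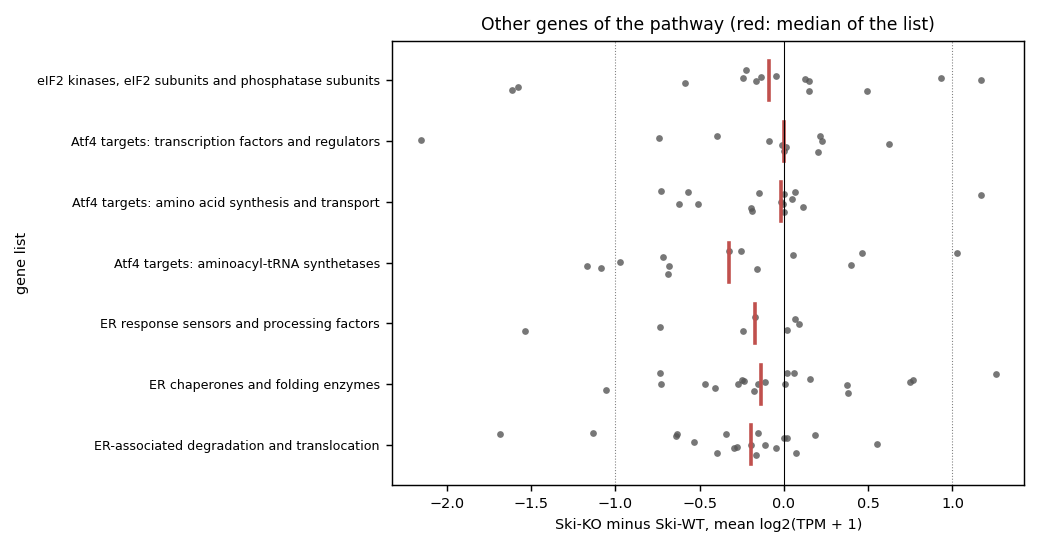
Ski-KO minus Ski-WT mean log2(TPM + 1) (horizontal axis) for the genes of 7 pathway lists (vertical axis). Each point is a gene in the table, red bars are list medians and dotted lines mark a difference of 1. List medians lie between -0.33 (aminoacyl-tRNA synthetases) and 0, and the lowest gene is Nupr1 at -2.15.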

How the data were processed

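The authors deposited 1 table of log2(TPM + 1) values per gene and cell, a scale read from the values, since back-transformed TPM sum to between 997625 and 999995 per cell. The submitters' processing notes name Bowtie2, RSEM and mm9, with neither version nor role. Per the labels' protocols, capture was on a Fluidigm C1 and libraries used SMARTer and Nextera XT chemistry, with no molecular identifiers named. TPM was recovered as 2 to the deposited log2 value, less 1. All 94 cells were kept, without doublet calling or clustering, and 0 columns of other samples were present. The cells of a genotype were treated as 1 sample, without tests. The main difference was the mean log2(TPM + 1) over Ski-KO cells minus that over Ski-WT cells, with a limit of 1 in size. Detection meant 5 TPM or more. The 10 genes and all lists were chosen with earlier results of these data known. From each list, the 2 genes with the highest and the 2 with the lowest difference were named, among genes that reached 5 TPM in 25% or more of cells with either genotype label, and the 5 genes most like Atf4 and Hspa5. Some genes that this rule picks are not reported here. Promoter sequences are from RefSeq, build GRCm38.p6, which is not the build named for the deposited values. The scripts were tested on simulated data. Alternatives changed the pseudocount, filter, limit, scaling, prefix and measure of relation. Figures were drawn with matplotlib 3.10.9, and values computed with scipy 1.17.1, pandas 2.3.3 and numpy 2.4.6 under Python 3.11.15.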

Additional observations from a re-analysis of the deposited data

How the results depend on the processing

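The number of members that differed by at least 1 between genotypes was 1 in the main values, 3 with a pseudocount of 0.1 TPM, 0 with 10 TPM, 2 by the log2 ratio of mean TPM plus 1, 2 with prefix 051716 alone and 2 with prefix 051816 alone. The share of all genes past the limit was 13.9%, and 6.67% without a filter, 42.6% at a limit of 0.5 and 3.94% at 1.5. The rho of Asns with Atf4 was 0.207 in prefix 051716 alone, where Asns was above 0 in 1 of 27 cells. The rho between the arms was 0.047 in prefix 051816 alone and 0.512 with the longer lists. The longer lists with the number of genes above 0 held constant were added after seeing the data. Of 80 member differences under 8 alternatives, 64 moved by no more than the gap between the Ski-KO prefixes. The Ski-KO prefixes taken alone are among these alternatives and cannot move further than that gap. The count is therefore no measure of how stable the differences were. Signs varied for Atf6, Atf4, Trib3, Hspa5, Calr and Herpud1, and were the same in all 8 for Xbp1, Ddit3, Asns and Eif2ak3. Eif2ak3 was at 0 in all 46 Ski-KO cells, so its constant sign is no measure of stability. No paired analysis was possible because cell numbers in the titles only name cells and no test was made. Read depth is unknown, and scarce genes rest on few cells.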

Other observations

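Calr was examined after its values were seen. It had a larger share of genes at a rho of 0.3 or more (0.978%) than Atf4 (0.252%) or Hspa5 (0.0946%), and Herpud1 was close to it (0.915%). The rho with the number of genes above 0 was 0.316 for Calr, 0.253 for Herpud1, 0.165 for Atf4 and 0.126 for Hspa5. The part of that number in the shares was not tested. The gene with the highest rho with Calr was Manf (0.445), which encodes a secreted ER stress-induced factor. It was 0.423 in prefix 051716, 0.402 in prefix 051816 and 0.474 in the Ski-WT cells. Of the 40 cells with Manf at 5 TPM or more, 37 also held Calr, compared with 75 of all 94 cells. With the number of genes above 0 held constant the rho was 0.365. Calr and Manf had the highest rho among 231 pairs of ER genes, followed by P4hb with Pdia3 (0.341), both protein disulphide isomerase genes. Top2a (0.431) and Atad2 (0.413), genes known to be high in dividing cells, came next for Calr, with 0.315 and 0.327 when the number of genes above 0 was held constant. For Top2a the rho was 0.502 in prefix 051716, 0.736 in prefix 051816 and 0.270 in the Ski-WT cells, and 23 of the 24 cells with Top2a at 5 TPM held Calr.

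The cells with the highest Hspa5 values did not share a profile of the other members. Ski-KO cell 16 held 3397 TPM of Hspa5 with 580 TPM of Calr, 114 TPM of Atf4 and 269 TPM of Ddit3. Ski-WT cell 9 held 3365 TPM with 1156 TPM of Herpud1, 96.01 TPM of Eif2ak3 and Atf4 at 0. Ski-KO cell 22 held 3331 TPM with 227 TPM of Trib3 and both Calr and Herpud1 at 0.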
